A study of Mus musculus with 8 samples.

Results

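The enzymes that modify and conjugate foreign compounds were examined in sorted mouse Paneth cells, as the protein-coding genes of the cytochrome P450 families 1 to 4 (Cyp), the UDP-glucuronosyltransferase families 1 to 3 (Ugt), the soluble glutathione S-transferase classes alpha, kappa, mu, omega, pi, theta and zeta (Gst) and the sulfotransferase families 1 to 6 (Sult). The rule that picked the members read gene symbols alone, though it was set with earlier results of these data known. Among 55414 gene IDs in the table, 148 were members, and 45 of these passed the filter on low counts that left 11929 genes for testing. The tested members were 19 Cyp, 5 Ugt, 17 Gst and 4 Sult genes.

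The 8 libraries came from Paneth cells collected by FACS from the small intestine of C57BL/6J mice. In the TG group (genotype DT TG) were 4 libraries of transgenic mice that make diphtheria toxin in their Paneth cells, and in the WT group 4 libraries of wild type mice. The study lists these data as profiles of cells purified after depletion of mature Paneth cells, and the sources used here do not give its extent. They name neither the promoter of the toxin transgene nor the age of the mice. The study describes its sequenced samples as taken from single mice, while the labels of these 8 libraries name no mouse, and p-values measure the spread between these libraries. Total counts per library ranged from 13107397 to 16218434, and 3 counts, the limit that a count of 0 allows, were worth 0.185 to 0.229 CPM (counts scaled to the library total) before TMM scaling. All 10 Paneth cell markers had counts, led by Lyz1 (lysozyme) with a mean of 175041 CPM in TG and 166212 CPM in WT, and 3 of them fell in TG (Mptx2, Mmp7 and Ang4). In TG and in WT alike, replicates 1 and 2 lacked counts of 4 Y-linked genes, whose sum was 897 to 1564 in replicates 3 and 4, so that both kinds of library stood equally in both groups.

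Xenobiotic metabolism works in steps. Cytochrome P450 enzymes of the endoplasmic reticulum insert oxygen into lipophilic compounds, and transferases then attach glucuronic acid, glutathione or sulfate, after which exporters carry the conjugates out of the cell. In the intestine these enzymes are known chiefly from the absorptive enterocytes of the villus, and many members also act on the body's own fatty acids, steroids, bilirubin and hormones.

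Sequence is shown first for the glutathione transferases of the pi class, since 1 of these 3 neighbouring genes was the single member that fell and reads can be ambiguous between the others. On GRCm39, Gstp1 lies at chr19:4085405-4088068, Gstp2 at chr19:4090285-4096023 and Gstp3 at chr19:4106035-4109569, all on the minus strand. The lines give bases 4 to 93 of each coding sequence (GENCODE), and capitals mark bases that differ from Gstp1 at the same position.
Gstp1: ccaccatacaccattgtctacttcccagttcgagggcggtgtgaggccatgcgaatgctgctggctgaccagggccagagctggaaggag
Gstp2: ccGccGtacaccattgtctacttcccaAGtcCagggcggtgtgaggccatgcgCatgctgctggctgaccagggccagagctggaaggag
Gstp3: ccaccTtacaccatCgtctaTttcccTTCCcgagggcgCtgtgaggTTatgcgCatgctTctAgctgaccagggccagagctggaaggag
Over the 630 coding bases, Gstp2 differed from Gstp1 at 12 positions and Gstp3 at 179, which are 98.1% and 71.6% identity. Positions were compared in order, without an alignment. The annotated coding sequence of Gstp3 has 6 exons, beside 7 in Gstp1 and Gstp2. It starts without ATG, so the first codon of each gene is not shown. Of all windows of 75 bases in the exons, 72.7% of Gstp1 and 50.2% of Gstp2 were found in no other gene, against 100% of Gstp3. Values of Gstp1 and Gstp2 were therefore uncertain, since the sources used here do not say how shared reads were counted.

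Promoter sequence is shown for 3 called members, namely the higher one with the smallest p (Cyp2s1), the higher one with a motif match nearest its start (Cyp4v3) and the lower one (Gstp3). The lines give the 250 bases before the RefSeq start on GRCm38.p6, minus strand, at chr7:25816526-25816775, chr8:45333164-45333413 and chr19:4059448-4059697. Capitals mark GCGTG, the core letters of the element bound by the aryl hydrocarbon receptor (AHR), which were searched on both strands beside TGACNNNGC, the core of the antioxidant element bound by NRF2.
Cyp2s1: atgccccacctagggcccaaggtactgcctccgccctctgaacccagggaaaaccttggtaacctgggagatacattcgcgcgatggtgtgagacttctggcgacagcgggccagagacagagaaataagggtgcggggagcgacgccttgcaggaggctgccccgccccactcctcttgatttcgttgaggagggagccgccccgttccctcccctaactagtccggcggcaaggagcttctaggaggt
Cyp4v3: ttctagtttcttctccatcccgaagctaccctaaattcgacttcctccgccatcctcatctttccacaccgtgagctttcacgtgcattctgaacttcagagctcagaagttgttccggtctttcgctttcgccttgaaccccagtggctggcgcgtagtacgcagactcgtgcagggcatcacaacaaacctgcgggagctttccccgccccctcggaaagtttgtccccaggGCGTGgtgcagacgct
Gstp3: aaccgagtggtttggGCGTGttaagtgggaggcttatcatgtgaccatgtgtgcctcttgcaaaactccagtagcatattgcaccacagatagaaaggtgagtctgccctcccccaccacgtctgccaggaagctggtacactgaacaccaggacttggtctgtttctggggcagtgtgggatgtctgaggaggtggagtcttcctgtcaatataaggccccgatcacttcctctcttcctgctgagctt
The match in Cyp4v3 began 16 bases and that in Gstp3 235 bases before the start, and the window of Cyp2s1 held neither motif. Windows were found for 12 of the 14 called members and for 41 of the 45 tested. GCGTG was present in a window of 4 of 12 called members (33.3%) and of 9 of 29 members not called (31.0%), beside 28.2% of all 32851 windows. TGACNNNGC was present for 1 of 12 (8.33%) and 2 of 29 (6.90%), beside 10.2% of all windows. Since a gene can have several windows, the shares of genes and of windows are not on the same base, and they are given as a description.

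TG was set against WT to see how sorted cells differed in mice whose Paneth cells express the toxin. More of these enzymes were higher in TG than lower, and the P450 genes gave 8 of the 13 that rose. Of the 45 tested members, 14 passed the threshold (edgeR adjusted p below 0.05, 31.1%), beside 17.9% of all genes tested. The called members were 13 genes that rose (28.9% of the tested members, beside 8.26% of all genes) and 1 that fell, Gstp3, beside 9.65% of all genes. The median log2 fold change was 0.36 over the tested members and 0.01 over all genes. TG and WT levels were fully separated in 13 of the 45 members, beside 22.0% of all genes, and 12 of those 13 were among the called members. In such bulk samples, fewer cells of a type and less RNA per cell cannot be told apart.

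By family, 8 of 19 Cyp members rose, with a median log2 fold change of 0.72 over the 19. Of 5 Ugt members 2 rose (median 0.48), of 4 Sult members 2 rose (median 0.80), and of 17 Gst members 1 rose and 1 fell (median 0.08). Over all genes tested, 8.26% rose and 9.65% fell. Differences between families were not tested. Among the 31 members that did not pass the test, 23 had a positive log2 fold change.

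**Figure D1:**
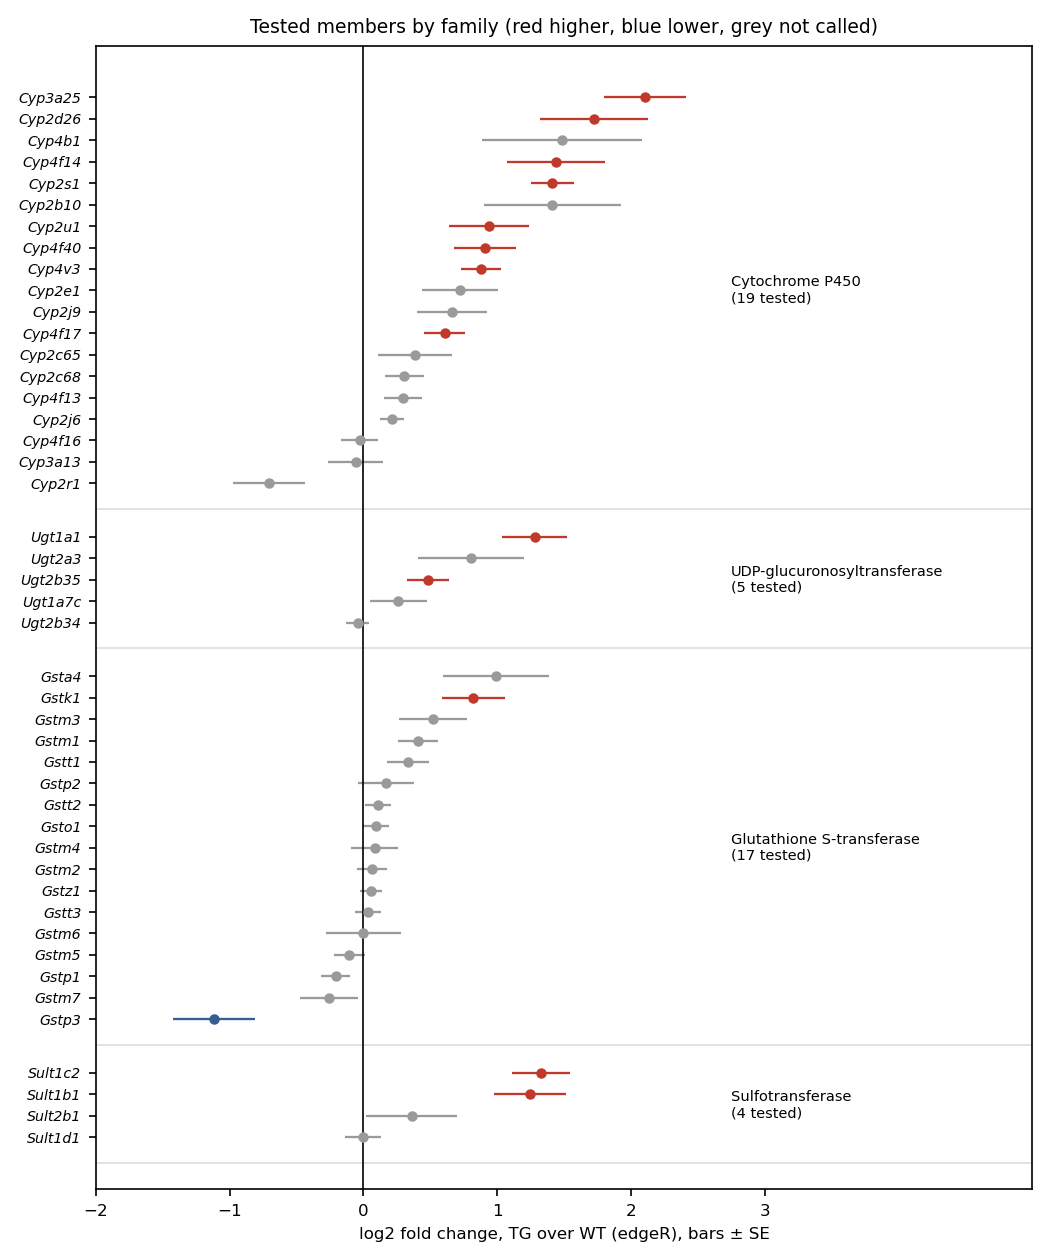
Log2 fold change of TG over WT (horizontal axis) with its standard error for each of the 45 tested members, ordered within family, with 4 libraries per group. Red points passed the test as higher (13 members), the blue point as lower (Gstp3) and grey points did not pass. Of the 19 Cyp points, 16 lie right of 0, and the median of the 17 Gst points is 0.08.

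The clearest rise among oxidizing enzymes was that of Cyp2s1 (chr7:25501895-25516338, GRCm39, minus strand), an extrahepatic P450 of epithelia known to be inducible through AHR. Its level was 9.75, 9.28, 11.2 and 10.3 CPM in TG replicates 1 to 4, and 4.79, 3.41, 3.48 and 3.57 CPM in WT replicates 1 to 4. All TG libraries lay above all WT libraries. Cyp2s1 was 2.66-fold higher in TG (log2 fold change 1.41 ± 0.16 SE, edgeR adjusted p = 0.000252), and it passed in every alternative fit in which it was tested. An antisense gene, Gm26707, overlaps its exons, and the sources used here do not say whether the counting used strand. Exons of antisense genes also overlap the called members Cyp2u1 and Ugt1a1 and, among the tested members without a call, Cyp3a13, Cyp4b1, Gstm1, Gstm5, Gsto1, Gstt3, Gstz1, Sult2b1, Ugt1a7c and Ugt2b34. On their own strand, exons of the called Cyp4v3 and of Gstt3 each overlap another gene, beside the shared exons of the Ugt1a locus.

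The greatest fold change of a called member was that of Cyp3a25 (chr5:145913516-145946432), of the Cyp3a subfamily that oxidizes many drugs and steroids. It was at 3.94, 2.39, 3.27 and 4.56 CPM in TG replicates 1 to 4, and at 0.639, 0.696, 0.669 and 1.26 CPM in the WT ones. The groups did not overlap. Cyp3a25 was 4.30-fold higher in TG (log2 fold change 2.10 ± 0.31 SE, edgeR adjusted p = 0.000938). Its relative Cyp3a13, the other tested gene of the subfamily, was at 3.65 to 6.94 CPM in TG and 4.68 to 5.75 CPM in WT, with a log2 fold change of −0.06 ± 0.21 (edgeR adjusted p = 0.874). Cyp3a11, a major Cyp3a enzyme of mouse liver, fell under the filter with 24, 9, 40 and 63 counts in the TG and 0, 1, 2 and 8 counts in the WT libraries. Every TG library had more CPM of Cyp3a11 than any WT library, though the gap was narrow (lowest TG 0.633, highest WT 0.595). Without the filter edgeR gave an adjusted p of 1.38e-10, in a fit of 21291 genes that included those with the fewest counts. This value is not comparable with those of the main fit.

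Of the Cyp4 genes, whose products hydroxylate fatty acids and eicosanoids at the chain end, 4 of 7 rose, beside 8.26% of all genes. Cyp4v3 (chr8:45757972-45786330), a fatty acid hydroxylase, was at 10.2, 10.2, 9.19 and 9.87 CPM in TG and at 4.71, 4.52, 6.22 and 5.95 CPM in WT. These groups did not overlap, and Cyp4v3 was 1.84-fold higher in TG (log2 fold change 0.88 ± 0.15 SE, edgeR adjusted p = 0.00191).

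The other 3 called Cyp4 genes lie in the Cyp4f cluster on chromosome 17 (chr17:32725024-33166434, GRCm39), a stretch of 441.4 kb with 5 tested genes. Cyp4f14, known as a leukotriene B4 hydroxylase, was at 4.50, 7.03, 13.2 and 12.8 CPM in TG replicates 1 to 4 and at 2.00, 2.99, 4.35 and 4.39 CPM in WT replicates 1 to 4. In both groups the replicates with Y-linked counts were the higher pair. Cyp4f14 was 2.71-fold higher in TG (log2 fold change 1.44 ± 0.37 SE, edgeR adjusted p = 0.0256), and the call was lost without WT replicate 1 or WT replicate 2 and in limma voom. Cyp4f40 was at 3.87, 5.20, 7.27 and 5.92 CPM in TG and at 2.71, 2.57, 4.08 and 2.45 CPM in WT. Here TG replicate 1 lay below WT replicate 3, so that the groups overlapped. Cyp4f40 was 1.88-fold higher (log2 fold change 0.91 ± 0.23 SE, edgeR adjusted p = 0.0163), a call lost without TG replicate 3. Cyp4f17 was at 6.53 to 7.38 CPM in TG and 3.94 to 5.08 CPM in WT, 1.52-fold higher (log2 fold change 0.61 ± 0.15 SE, edgeR adjusted p = 0.0154). The remaining tested genes of the cluster, Cyp4f13 and Cyp4f16, lie outside the rule for named genes and were chosen after their values were seen, with log2 fold changes of 0.30 ± 0.14 and −0.03 ± 0.14 that did not pass.

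Of 10 tested Cyp2 genes, 3 rose, beside 8.26% of all genes. Cyp2d26 (chr15:82674300-82678509) was at 1.62, 1.76, 2.20 and 4.18 CPM in TG and at 0.798, 0.278, 0.802 and 1.04 CPM in WT. The groups did not overlap, with TG replicate 4 well above the other TG libraries, and Cyp2d26 was 3.30-fold higher (log2 fold change 1.72 ± 0.40 SE, edgeR adjusted p = 0.0105). Cyp2u1, which hydroxylates long-chain fatty acids such as arachidonic acid, was at 3.50, 2.81, 2.99 and 5.70 CPM in TG and at 1.12, 1.67, 2.61 and 2.30 CPM in WT. Its groups did not overlap either, yet the call (log2 fold change 0.94 ± 0.30 SE, edgeR adjusted p = 0.0415) remained in 2 of 8 fits that left out a library, those without TG replicate 3 and without WT replicate 3, and was lost with total counts and in limma voom.

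The most abundant P450 genes did not pass the test. Cyp2c68 made up 28.57% of the summed Cyp level, at 63.1, 58.4, 51.5 and 65.7 CPM in TG and 52.6, 40.0, 38.0 and 62.6 CPM in WT (log2 fold change 0.31 ± 0.15 SE, edgeR adjusted p = 0.165). It passed in some other fits, among them those without WT replicate 4, the WT library with its highest level, with total counts and without the filter. Cyp2j6 made up 22.86%, with 46.4 ± 1.52 CPM in TG and 40.0 ± 3.94 CPM in WT (SD, n = 4 each; log2 fold change 0.21 ± 0.09 SE, edgeR adjusted p = 0.107). Cyp1a1, the classical AHR target, had a count of 0 in every library, which allows up to 3 counts in each, and 1 of the 3 Cyp1 genes had any count.

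Chosen after their values were seen, 2 further Cyp2 genes are given for their size of change. Cyp2b10, a classical target of the constitutive androstane receptor in liver, was at 4.69, 7.31, 1.92 and 4.56 CPM in TG and 3.83, 1.11, 0.936 and 1.12 CPM in WT, a log2 fold change of 1.41 ± 0.51 SE whose edgeR adjusted p was 0.0863. Cyp2r1, a vitamin D 25-hydroxylase, had the lowest value of the tested Cyp genes, −0.71 ± 0.27 SE (edgeR adjusted p = 0.0811). Neither passed the threshold, although Cyp2b10 did in other fits, among them those without TG replicate 3 or WT replicate 1, with total counts, without the filter, with the Y-linked covariate and in DESeq2.

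Glucuronidation was dominated by a gene that did not pass the test. Ugt2b34 held 85.33% of the summed Ugt level, with 119, 118, 121 and 114 CPM in TG and 133, 119, 108 and 125 CPM in WT. The groups overlapped, and its log2 fold change was −0.04 ± 0.09 SE (edgeR adjusted p = 0.769). Ugt1a1 (chr1:88139679-88147724), the enzyme that conjugates bilirubin, was at 4.62, 4.01, 3.33 and 4.56 CPM in TG and 1.20, 1.39, 2.21 and 1.93 CPM in WT. Without overlap between the groups, it was 2.43-fold higher in TG (log2 fold change 1.28 ± 0.24 SE, edgeR adjusted p = 0.00357). The genes of the Ugt1a locus differ in their first exon and share the others, so that 29.8% of the exon windows of Ugt1a1 and 23.6% of those of Ugt1a7c are found in no other gene. Ugt1a7c, the other tested gene of the locus, was at 5.90 ± 1.17 CPM in TG and 4.91 ± 1.41 CPM in WT (SD, n = 4 each), a log2 fold change of 0.26 ± 0.21 SE that did not pass (edgeR adjusted p = 0.419). The division of reads between these genes is uncertain.

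Ugt2b35 was at 13.1, 12.5, 11.6 and 9.64 CPM in TG and 8.14, 6.47, 10.6 and 8.33 CPM in WT, with WT replicate 3 above TG replicate 4. Its rise of 1.40-fold (log2 fold change 0.48 ± 0.16 SE, edgeR adjusted p = 0.0464) was the smallest of the 13 and was lost in 6 of 8 fits that left out a library, all but those without TG replicate 4 and WT replicate 3, and with total counts or the Y-linked covariate. Ugt2b5 fell under the filter, with 3, 8, 19 and 8 counts in TG and 0, 0, 2 and 0 counts in WT. Without the filter edgeR gave it an adjusted p of 0.000499, which likewise is not comparable with those of the main fit. No Ugt3 gene had a count.

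**Figure D2:**
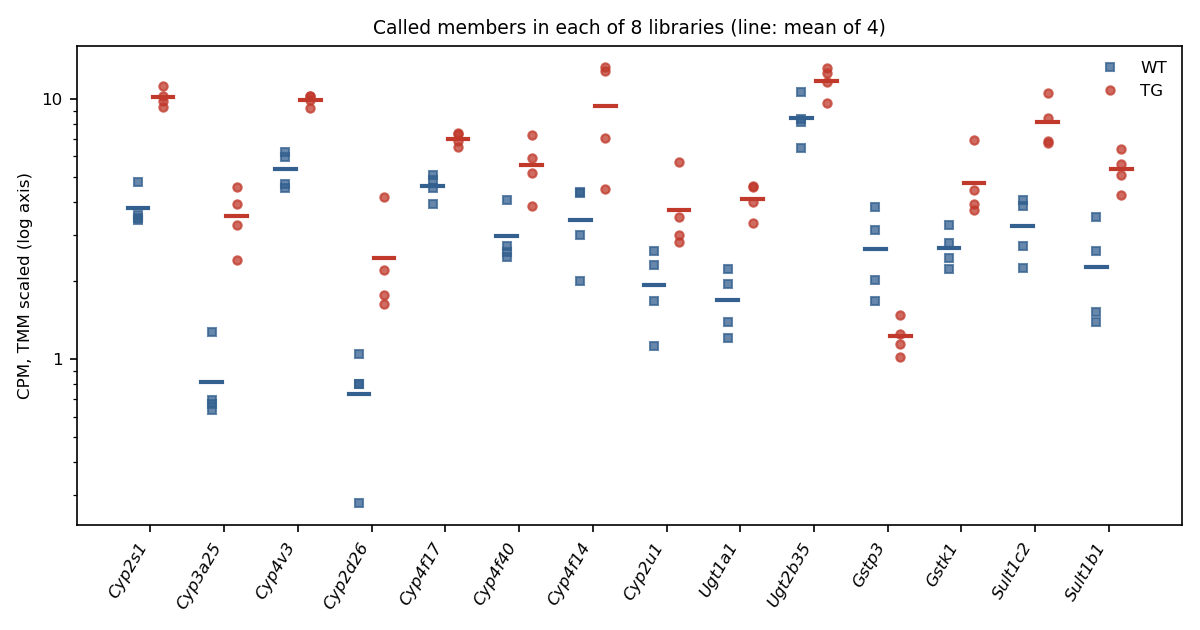
Level of the 14 called members in each library, in TMM-scaled CPM on a log axis, with blue squares for the 4 WT and red circles for the 4 TG libraries and lines at the group means. The TG and WT points of Cyp4f40 and Ugt2b35 overlap, and those of the other 12 do not.

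Among 17 glutathione transferases, 1 gene rose (5.88%, beside 8.26% of all genes), 1 fell (beside 9.65%) and 15 did not pass the test. Both shares lie below those of all genes. Gstk1 (chr6:42222830-42227386), the kappa class enzyme of mitochondria and peroxisomes, was at 4.44, 3.94, 3.72 and 6.91 CPM in TG and 2.79, 2.43, 2.21 and 3.27 CPM in WT. The groups did not overlap and Gstk1 was 1.77-fold higher (log2 fold change 0.82 ± 0.24 SE, edgeR adjusted p = 0.0279), but the call was lost without TG replicate 1, TG replicate 4, WT replicate 2 or WT replicate 3. Gstp3, whose coding sequence is given above, was at 1.25, 1.48, 1.01 and 1.14 CPM in TG and 3.11, 3.83, 1.67 and 2.01 CPM in WT. Every TG library was below every WT library, with a log2 fold change of −1.12 ± 0.30 SE (edgeR adjusted p = 0.0219), and this call was lost with total counts and without TG replicate 1, TG replicate 3 or WT replicate 2. Its abundant neighbour Gstp1, at 22.8 ± 1.89 CPM in TG and 26.3 ± 3.39 CPM in WT (SD, n = 4 each), did not pass (−0.21 ± 0.11 SE, edgeR adjusted p = 0.195).

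The leading Gst gene, Gsto1 of the omega class, held 29.94% of the summed Gst level at 92.2 ± 3.53 CPM in TG and 86.4 ± 11.9 CPM in WT (SD, n = 4 each; log2 fold change 0.09 ± 0.10 SE, edgeR adjusted p = 0.538). The 7 mu class genes, in a cluster of 149.1 kb at chr3:107803137-107952210, all were tested and none passed, with log2 fold changes from −0.26 to 0.52. Of these, Gstm5 was the most abundant per length (−0.11 ± 0.12 SE), and Gstm1 (0.41 ± 0.15 SE, edgeR adjusted p = 0.0689) passed in some other fits, among them those without WT replicate 4, without the filter, with the Y-linked covariate and within the libraries that lacked Y-linked counts. Likewise none of 3 theta class genes at chr10:75609940-75673258 passed (0.03 to 0.33). In the alpha class, Gsta4, which conjugates the lipid peroxidation product 4-hydroxynonenal, was at 1.19, 0.703, 1.92 and 2.28 CPM in TG and 0.958, 0.556, 0.936 and 0.595 CPM in WT. The log2 fold change of 0.99 ± 0.39 SE did not pass (edgeR adjusted p = 0.0937), and Gsta1 with 11 counts in all was not tested.

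Among sulfotransferases, 2 genes of family 1 rose while the most abundant gene did not pass the test. Sult1c2 (chr17:54136151-54153418) was at 8.44, 6.89, 6.77 and 10.5 CPM in TG and 2.71, 2.23, 3.88 and 4.09 CPM in WT. The groups did not overlap, and Sult1c2 was 2.51-fold higher (log2 fold change 1.33 ± 0.22 SE, edgeR adjusted p = 0.00162). Sult1b1 (chr5:87661191-87686072), which sulfates thyroid hormones and phenols, was at 4.25, 5.62, 6.43 and 5.09 CPM in TG and 1.52, 1.39, 2.61 and 3.49 CPM in WT. Again without overlap, it was 2.37-fold higher (log2 fold change 1.24 ± 0.27 SE, edgeR adjusted p = 0.00697). Sult1d1, a catecholamine sulfotransferase in the same region of chromosome 5 (chr5:87702504-87716933), held 81.23% of the summed Sult level with 50.8 ± 3.79 CPM in TG and 50.9 ± 10.9 CPM in WT (SD, n = 4 each), and its log2 fold change of 0.00 ± 0.14 SE did not pass (edgeR adjusted p = 0.994). Sult1a1 had 67 counts in all and was not tested.

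Levels of different genes were compared per kb of exon. Over all 8 libraries, Ugt2b34 had the highest level (27.6 ± 1.72 CPM per kb, SD), followed by Gsto1 (25.2 ± 2.46), Gstm5 (21.1 ± 2.72), Cyp2c68 (20.6 ± 4.00) and Sult1d1 (20.3 ± 3.02). Neighbours in this order overlapped in their ranges in all but 1 of 44 pairs, that of Gstt3 and Gstt2 at ranks 10 and 11. None of the 10 highest members passed the test, beside 31.1% of the 45 tested members and 17.9% of all genes. All 14 called members stood among the other 35. Whether calls depend on level was not tested. The order pools both groups, and the called member with the highest level was Sult1c2 in TG (3.38 CPM per kb) and Ugt2b35 in WT (1.95 CPM per kb).

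**Figure D3:**
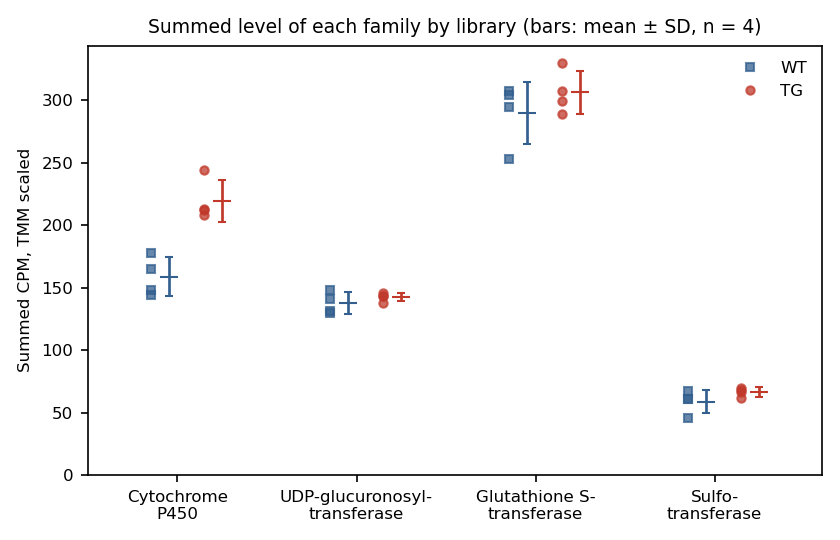
Summed level of all members of each family in each library (points, TMM-scaled CPM), with mean ± SD of the 4 WT (blue squares) and 4 TG (red circles) libraries beside them. The Cyp sums of TG lie above all of WT, whereas the sums of the other 3 families overlap.

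Summed over all 82 Cyp genes, the level was 219 ± 16.7 CPM in TG and 159 ± 15.7 CPM in WT (SD, n = 4 each), and the lowest TG library (208 CPM) was above the highest WT library (178 CPM). The Ugt sum was 142 ± 3.27 CPM in TG and 138 ± 8.77 CPM in WT, the Gst sum 307 ± 17.1 and 290 ± 25.1 CPM, and the Sult sum 66.6 ± 3.79 and 58.6 ± 9.15 CPM. These 3 overlapped between the groups. The sums are descriptions, without a test.

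The libraries with and without Y-linked counts were compared because many of these enzymes differ between the sexes in other tissues. In an edgeR fit with an interaction, 0 of 45 members differed in their change between both kinds of library (lowest adjusted p = 0.834, 3 members at an unadjusted p below 0.05), and 3 of 11929 genes did. All 14 called members had the same sign in both kinds. For the 12 whose groups did not overlap this was fixed in advance, so it does not show that the change is alike in both kinds. Of the 13 that rose, 7 had the larger log2 fold change in the libraries without Y-linked counts, for example Ugt1a1 (1.73 without and 0.91 with), and 6 in those with them, for example Cyp2s1 (1.22 and 1.61). With 2 libraries per group, edgeR called 11 of 45 members in the libraries without Y-linked counts, beside 9.44% of all genes, and 4 of 49 in those with them (Cyp2s1, Cyp3a11, Cyp3a25 and Cyp4f14), beside 1.80% of all genes. Cyp3a11 passed the filter of the latter fit through its TG libraries (40 and 63 counts, against 2 and 8 in WT), so its call there is no support for a change. Cyp2c55, chosen after its values were seen and under the filter, had 79, 41 and 57 counts in TG replicates 3 and 4 and WT replicate 3 and at most 4 in each other library.

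Beyond the 4 families, other genes of the same pathway were counted from lists chosen with earlier results known. Of 9 tested nuclear receptors and sensors, 0 fell (beside 9.65% of all genes) and the median log2 fold change was 0.22. In this list 3 rose (33.3%, beside 8.26% of all genes). They were Nr1i2, the pregnane X receptor that is known to induce Cyp3a genes (15.9 ± 0.546 CPM in TG, 10.5 ± 1.72 in WT, SD, n = 4 each; log2 fold change 0.60 ± 0.12 SE, edgeR adjusted p = 0.00550), its partner Rxra (0.53 ± 0.09 SE, edgeR adjusted p = 0.00164) and, outside the rule, the bile acid receptor Nr1h4 (0.53 ± 0.13 SE, a call lost without TG replicate 1). Ahr itself was at −0.14 ± 0.18 SE and did not pass.

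Of 18 tested other phase I enzymes, 9 rose (50.0%, beside 8.26% of all genes), 1 fell (beside 9.65%) and 8 did not pass. Over these 18 the median log2 fold change was 0.47. The flavin monooxygenase Fmo5 was at 11.3 to 20.8 CPM in TG and 4.45 to 6.47 CPM in WT (log2 fold change 1.39 ± 0.21 SE, edgeR adjusted p = 0.00139), and the carboxylesterase Ces2a at 3.94 to 8.43 CPM in TG and 1.81 to 2.87 CPM in WT (1.32 ± 0.25 SE, edgeR adjusted p = 0.00346). The one that fell, outside the rule, was Xdh, xanthine dehydrogenase (−1.05 ± 0.26 SE), a call lost without TG replicate 1, TG replicate 2 or WT replicate 1. Of 8 tested efflux transporters (median 0.27), 3 rose (37.5%, beside 8.26% of all genes). They were Abcc5 (1.03 ± 0.17 SE, edgeR adjusted p = 0.00194), Abcc6 (1.52 ± 0.31 SE, edgeR adjusted p = 0.00492) and, outside the rule, Abcb1a, which encodes a P-glycoprotein (0.40 ± 0.12 SE, lost without TG replicate 2, TG replicate 4, WT replicate 3 or WT replicate 4). Of 3 microsomal glutathione transferases 1 rose, beside 8.26% of all genes. It was Mgst2 (0.38 ± 0.12 SE, edgeR adjusted p = 0.0367), a call that remained in 2 of 8 fits that left out a library, those without WT replicate 1 and WT replicate 4.

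Several genes of the oxidative stress response were lower in TG. Of 12 NRF2 target genes 5 fell (41.7%, beside 9.65% of all genes) and 0 rose (beside 8.26%), with a median log2 fold change of −0.35. Among the 5 were Osgin1 (9.18 ± 1.23 CPM in TG, 16.5 ± 2.80 in WT, SD, n = 4 each; −0.84 ± 0.14 SE, edgeR adjusted p = 0.00195) and the thioredoxin reductase Txnrd1 (−0.38 ± 0.08 SE, edgeR adjusted p = 0.00651). The other 3, outside the rule, were G6pdx, Hmox1 and Srxn1 (−0.43, −0.95 and −0.32). The count of 5 depended on the scaling and on single libraries. It was 1 with total counts (Osgin1), 2 without TG replicate 2, and 3 without TG replicate 1, TG replicate 4 or WT replicate 4.

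Of 11 genes for P450 partners and cofactor supply, 1 fell, the mitochondrial cytochrome b5 gene Cyb5b (−0.39 ± 0.10 SE, edgeR adjusted p = 0.0155), and 0 rose (median −0.14). This share of 9.09% is close to the 9.65% of all genes that fell. The call of Cyb5b was lost with total counts and without TG replicate 1 or TG replicate 2. Por, which passes electrons to microsomal P450 enzymes, was among those that did not pass (0.08 ± 0.13 SE).

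Of 13 tested markers of absorptive enterocytes, 6 rose (46.2%, beside 8.26% of all genes), 0 fell (beside 9.65%) and 7 did not pass. The median log2 fold change was 1.56, and the 6 that rose were Alpi, Apob, Mttp, Apoa4, Slc5a1 and Treh. The count was 4 without WT replicate 1 or WT replicate 2 and in limma voom, 10 with the Y-linked covariate, and 2 within the libraries that had Y-linked counts. Their summed level was 852 to 1077 CPM in TG and 738 to 860 CPM in WT, most of it from Anpep and Vil1, which did not pass the test. Lct and Fabp1 were at 0 in at least 1 WT library. The part of enterocyte RNA in the changes of the enzyme families was not tested. Of the other lists, 3 of 10 Paneth markers fell (median −0.23), 0 of 7 goblet markers passed (median −0.25), 1 of 5 stem markers rose and 1 fell (Axin2 and Smoc2), and of 6 immune markers 1 was tested and did not pass, with Adgre1 at 0 in every library.

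**Figure D4:**
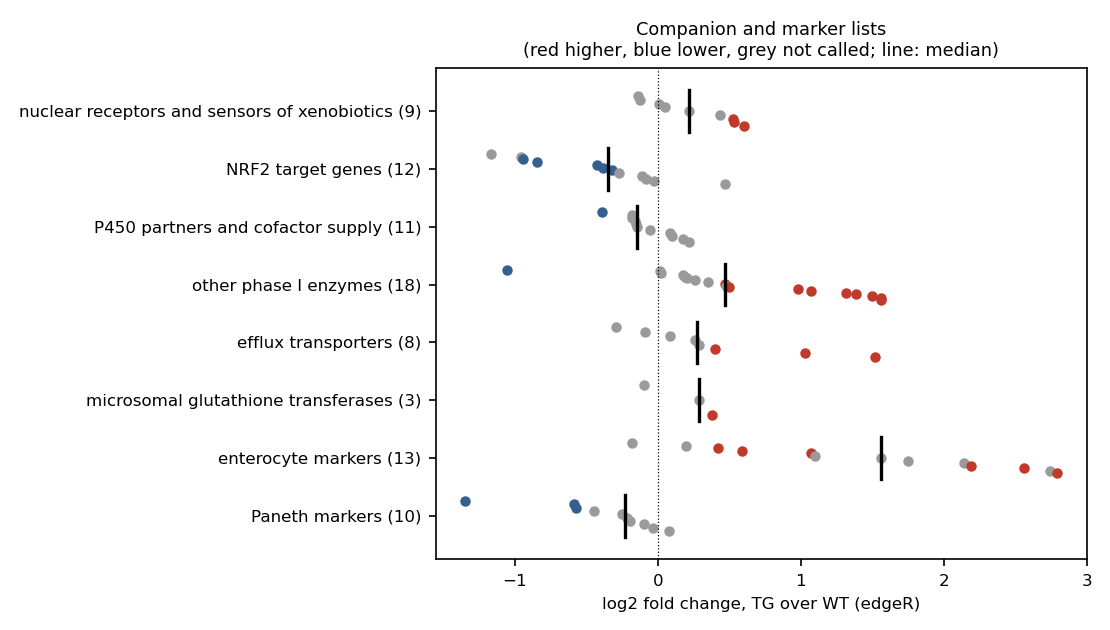
Log2 fold change of TG over WT (horizontal axis) of each tested gene of 6 companion lists and 2 marker lists (rows, number of tested genes in brackets), with 4 libraries per group. Red and blue points passed the test as higher and lower, grey ones did not, and black lines are medians, from −0.35 in the NRF2 target genes to 1.56 in the enterocyte markers.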

How the data were processed

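The deposited values are whole-number counts for each Ensembl gene ID in each library, in 1 table of the authors. The submitters' processing notes name FastQC 0.12.0, STAR 2.7.0a, DESeq2 and the build mm39, without their roles. For the counting tool, its use of strand and its treatment of shared reads the entry is: not given in the sources used here. Libraries were made with a stranded, poly(A)-selecting kit. No per-sample column was left out, and groups and replicate numbers came from the labels.

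Symbols, positions and exon lengths came from GENCODE M39 on GRCm39, which matched 54749 of 55414 IDs, the rest holding at most 0.015% of a library's counts. Counts were tested with edgeR 4.0.16 in R 4.3.3 (robust quasi-likelihood fits, TMM factors, the default filter by group, Benjamini-Hochberg adjustment over 11929 genes, threshold 0.05, group as the only term). Log2 fold changes are TG over WT, with SE taken from the F statistic. CPM are TMM-scaled. On simulated data for this comparison (11929 genes, 200 changed), 85.5% of the changed genes were recovered with 8 false calls, and 1 gene was called with no change simulated. Chi-square per degree of freedom between replicates was at least 5.20, so that no library was counted as a duplicate.

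Alternatives were DESeq2 1.42.0, limma voom 3.58.1 with quality weights, RLE factors, total counts, removal of the alpha-defensin genes, other filters, a replicate block, presence of Y-linked counts as a covariate, separate fits for libraries that had or lacked them, and leaving out each library. Named were, per family, all called members up to 8, the 3 highest per kb of exon and a fixed list of 16 genes, and per companion list the 2 called genes with the smallest p. The members and lists were chosen with earlier results of these data known. Shared sequence was counted over windows of 75 bases of exons. The coding stretches of the Gstp genes were added after the values were seen.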

Additional observations from a re-analysis of the deposited data

Results flagged for a closer look

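In 78 groups of 4 libraries of named genes, 8 had a library that lay far from the other 3, where chance alone gives about 3.9. Of the called members, Cyp2s1 was at 4.79 CPM in WT replicate 1 (others 3.41 to 3.57), Cyp3a25 at 1.26 CPM in WT replicate 4 (others 0.639 to 0.696) and Cyp4f40 at 4.08 CPM in WT replicate 3 (others 2.45 to 2.71). In each of these the deviating WT library was the one nearest to TG. Among members without a call, Cyp3a13 was at 5.75 CPM in WT replicate 1 (others 4.68 to 4.80) and Sult1a1 at 1.87 CPM in WT replicate 3 (others 0.240 to 0.446). In the same library Ugt2b5 was at 0.134 CPM and Gsta1 at 0.201 CPM, with 0 counts in the other WT libraries, which are 2 and 3 counts and thus within the limit that a count of 0 allows. The phase I enzyme Fmo5 was at 20.8 CPM in TG replicate 4 (others 11.3 to 12.2).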

How the results depend on the processing

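Under all alternatives, 0 named genes with a call in either fit changed direction, and 591 of 665 values of named genes kept their side of the threshold. Of the other settings, no filter raised the members higher in TG from 13 to 21 of 82 tested, and fitting just the libraries that had Y-linked counts gave 4 higher and 0 lower. Total counts shifted the median over all genes to 0.12 (log2), left 0 members lower, raised the log2 ratio of the Ugt sum from 0.0492 to 0.172, of the Gst sum from 0.0810 to 0.197 and of the Sult sum from 0.184 to 0.307, and turned the split of all calls from 985 higher and 1151 lower to 787 and 263. Companion genes called numbered 11 where Y-linked counts were lacking and 3 where they were present. Leaving out 1 library gave 10 to 14 members higher and 0 to 1 lower, 0 without TG replicate 1, TG replicate 3 or WT replicate 2. Total calls over all genes then were 1055 to 2228, and 8 members passed in each of the 8 fits. With the replicate block, 17 members were higher and 1 lower, with all 14 kept and Cyp2b10, Cyp2c68, Cyp2j9 and Gstm1 added. The labels do not say whether same-numbered libraries belong together, and the block stays an alternative. Deviations of same-numbered libraries correlated at 0.0666 to 0.286, and such libraries also share the presence or lack of Y-linked counts. The block and the Y-linked covariate each called 10 enterocyte markers. DESeq2 called 17 members and limma voom 13. The 37 members with counts that were not tested had at most 187 counts each over the 8 libraries.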
